A study of Mus musculus with 22 samples.

Results

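Matrix metalloproteinases (MMPs), ADAMTS proteases, the ADAMTS-like proteins and the tissue inhibitors of metalloproteinases (TIMPs) form the main system that cuts and protects the extracellular matrix. Its genes were read out in whole testes of WT and MLX KO mice. A gene belonged to the group if its symbol in the deposited count table began with Mmp or Timp followed by a digit, or with Adamts. The rule uses the symbol alone. The rule took 47 of the 17931 gene symbols in the table: 19 Mmp, 19 Adamts, 5 Adamtsl and 4 Timp genes.

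MLX is a transcription factor of the extended MYC network that binds DNA as a dimer with the glucose-sensing factors MondoA and ChREBP or with MXD proteins. RNA was taken from whole testes of 3 WT males that had been verified as fertile breeders and 3 MLX KO males, all 7 months old, which the study describes as pairs of age-matched littermates. The KO males lacked, in every tissue, the exons that encode the DNA-binding and dimerization region of MLX. The allele was made in mouse embryonic stem cells, the deletion was made by Meox2-Cre, and the Cre allele was afterwards crossed out. The lines came from 2 independent stem cell clones, and which of them gave these males is not given in the sources used here. No male received any treatment.

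MMPs are zinc proteases made as inactive precursors, and as a group they cut collagens, gelatin, laminin and many cell-surface proteins. ADAMTS enzymes share the zinc protease core and carry thrombospondin repeats that hold them in the matrix; one branch cuts proteoglycans such as aggrecan and versican, and another removes the N-terminal propeptide of fibrillar procollagens. ADAMTS-like proteins have the thrombospondin repeats without the protease domain. TIMPs bind the active site of MMPs one to one, and TIMP3 also inhibits several ADAMTS enzymes. In the testis this system acts on the basement membrane of the seminiferous tubule, on the junctions between Sertoli cells and on the interstitium that holds the Leydig cells.

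The 6 libraries held 16674678 to 19742726 counts. Of all 14640 genes with enough counts for a test, 45.4% passed an adjusted p of 0.05 in the quasi-likelihood test of edgeR, corrected by the Benjamini-Hochberg method, 24.8% higher and 20.6% lower in MLX KO, so a call was common in these testes. When libraries were scaled by their totals alone, without TMM factors, the median log2 fold change of all genes moved from 0.03 to 0.16 and the split became 36.5% higher and 8.66% lower. Libraries of 1 genotype differed by more than sampling noise, most for KO1 against KO2 or KO3. The count of Mlx itself, 128, 96 and 98 in WT against 94, 109 and 102 in MLX KO, includes exons outside the deletion and does not check the labels. Fewer cells of a type and less RNA per cell cannot be told apart in bulk testes. All fold changes are MLX KO relative to WT, and levels are CPM, counts scaled to a fixed library total after TMM adjustment.

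Of the 47 genes, 36 had enough counts for the test and 11 did not. Among the 36, 16 were higher, 2 were lower and 18 were not called, beside 24.8% higher and 20.6% lower among all genes tested. Their median log2 fold change was 0.47, against 0.03 over all genes. CPM values of the genotypes did not overlap for 20 of the 36, with MLX KO above WT in 18 and below it in 2; of all genes tested 56.2% did not overlap, 30.3% with MLX KO above and 25.9% below. Of the tested genes, 27 passed the filter on low counts in both genotypes, and of these 11 were higher and 2 lower. Timp1, Mmp23 and Adamts8 passed it through the MLX KO libraries only and so could enter the test only by being higher there, and Mmp9, Adamts4, Adamtsl2 and Adamtsl4 reached it in all MLX KO but not all WT libraries. With a block for the littermate pair, 17 of these genes were higher in edgeR, where 25.5% of all genes were, and 10 in DESeq2, where 14.5% were.

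**Figure D1:**
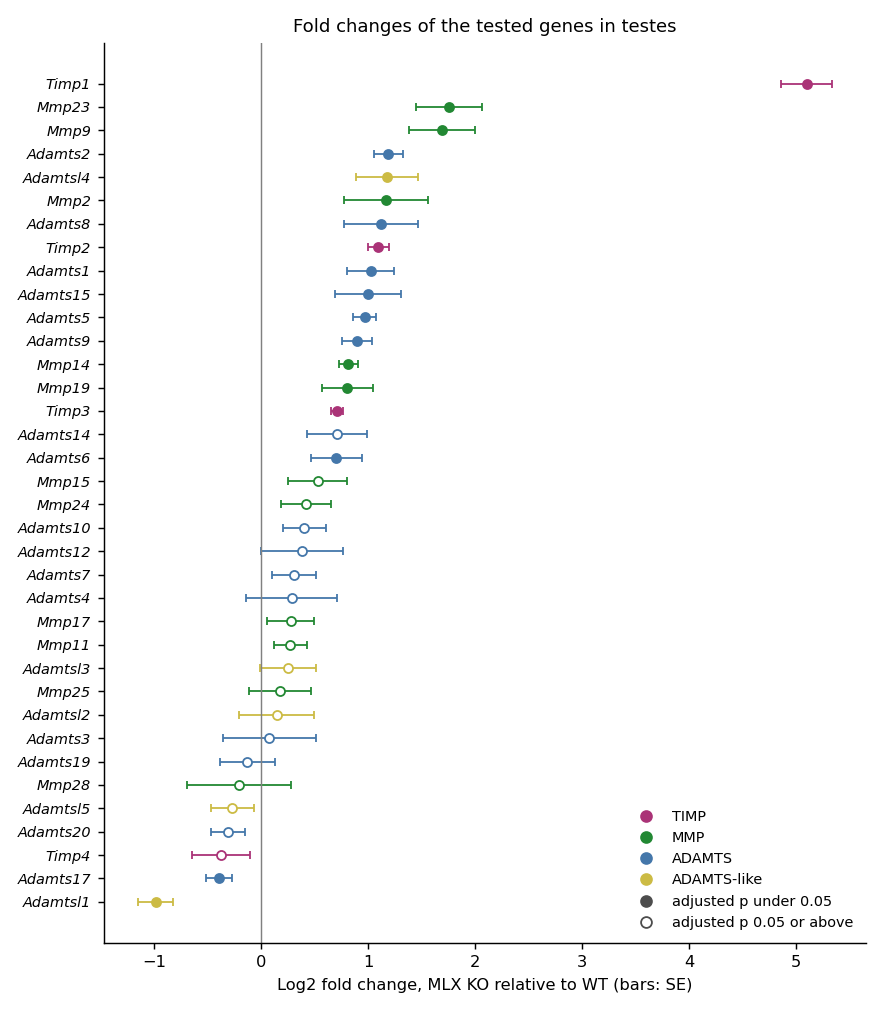
Log2 fold change (MLX KO relative to WT; points) with its standard error (bars) for the 36 tested genes, coloured by family, filled where the edgeR adjusted p was under 0.05. Timp1 stands apart at 5.10, and the other called genes lie between -0.99 for Adamtsl1 and 1.76 for Mmp23.

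RefSeq promoter windows (GRCm38.p6, from 250 bases before to 50 after the start of a transcript) were at hand for 32 of the 47 genes, in 35 windows. Of the called genes, 9 of the 16 higher and 1 of the 2 lower had a window, so the others were not searched. The windows at hand were searched for 3 motifs. The first was the E-box that MLX dimers and other factors of its class can bind, CACGTG, which reads the same on both strands. The second was the AP-1 site of the FOS and JUN family of transcription factors, TGAGTCA, which was searched on both strands. The third was the TATA box that a minority of promoters carry near the start of transcription, TATAAA, which was searched on the strand of the gene only. No matches overlapped in the windows of these genes. The windows of the 4 Timp genes are shown because their transcripts span both the largest increase and no called change. All 4 held no exact match to these letters. Only exact matches were counted, so variants of a site were not searched for and may be present. Their sequences, 5′ to 3′ on the strand of the gene, were as follows.
Timp1, chrX:20869916-20870215, plus strand: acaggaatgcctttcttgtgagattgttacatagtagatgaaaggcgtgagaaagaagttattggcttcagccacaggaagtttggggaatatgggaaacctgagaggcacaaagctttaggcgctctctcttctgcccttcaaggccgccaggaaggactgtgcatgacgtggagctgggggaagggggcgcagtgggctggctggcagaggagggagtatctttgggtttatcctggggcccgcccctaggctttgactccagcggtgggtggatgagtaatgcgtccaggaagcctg
Timp2, chr11:118355362-118355661, minus strand: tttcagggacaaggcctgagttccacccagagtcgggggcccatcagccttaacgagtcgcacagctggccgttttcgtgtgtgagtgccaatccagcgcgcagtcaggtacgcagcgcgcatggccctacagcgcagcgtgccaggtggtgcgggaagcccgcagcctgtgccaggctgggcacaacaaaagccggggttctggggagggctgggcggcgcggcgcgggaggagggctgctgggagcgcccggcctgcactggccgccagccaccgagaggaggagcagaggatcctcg
Timp3, chr10:86300162-86300461, plus strand: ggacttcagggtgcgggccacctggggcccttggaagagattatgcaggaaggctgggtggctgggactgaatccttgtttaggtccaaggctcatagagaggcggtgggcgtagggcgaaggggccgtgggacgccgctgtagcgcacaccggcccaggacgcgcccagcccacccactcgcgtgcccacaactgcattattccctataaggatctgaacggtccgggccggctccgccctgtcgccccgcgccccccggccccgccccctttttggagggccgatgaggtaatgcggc
Timp4, chr6:115252156-115252455, minus strand: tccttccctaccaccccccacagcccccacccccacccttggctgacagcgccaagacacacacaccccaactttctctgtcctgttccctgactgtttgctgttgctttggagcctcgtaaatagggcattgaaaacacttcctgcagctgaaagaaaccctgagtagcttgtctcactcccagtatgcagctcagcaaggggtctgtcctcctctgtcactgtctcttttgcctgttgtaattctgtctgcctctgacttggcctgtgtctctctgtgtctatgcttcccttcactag

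The windows of Timp2 and Timp3, the Timp genes with the highest levels, were rich in G and C, at 68.7% and 67.0%, with 25 and 24 CpG dinucleotides. Those of Timp1 and Timp4 held 55.0% and 53.3%, with 8 and 2 CpG. The median over all 32851 windows of the table was 52.7%. An E-box stood in 7.15% of all windows, or at 8.09% of all genes with a window, and in the windows of 2 of the 32 genes, Adamts17, which was lower in MLX KO, and Mmp7, which had almost no counts. The Adamts17 window is shown with its E-box in capitals, beginning 173 bases before the start.
Adamts17, chr7:66839485-66839784, plus strand: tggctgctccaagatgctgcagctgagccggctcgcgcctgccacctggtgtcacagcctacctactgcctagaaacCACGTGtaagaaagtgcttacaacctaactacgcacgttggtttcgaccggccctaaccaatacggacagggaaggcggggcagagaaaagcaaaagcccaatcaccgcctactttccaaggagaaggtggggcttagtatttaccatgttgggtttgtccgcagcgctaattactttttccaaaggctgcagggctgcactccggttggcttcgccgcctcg

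An AP-1 site occurred in 5.20% of all windows, or at 5.95% of all genes, and in those of 3 of the 32 genes, Mmp7, Mmp12 and Mmp13. A TATA box occurred in 8.32% of all windows, or at 9.77% of all genes, and in those of 7 of the 32: Mmp7, Mmp12, Mmp13, Mmp20, Mmp21, Adamts1 and Adamtsl2. All but Adamts1 and Adamtsl2 had too few counts for the test, and so had all 3 genes with an AP-1 site. The windows of tested genes had a median GC content of 66.5% (53.3 to 80.0%, 24 windows) and those of genes with too few counts 46.0% (38.7 to 66.0%, 11 windows). Most of these 11 windows, and all 3 genes with an AP-1 site, belong to a cluster of 6 Mmp genes on chromosome 9. Outside that cluster, the windows of Adamts13, Adamts18 and Mmp21 held 54.7%, 66.0% and 54.3%. The window of Mmp13, from that cluster, is shown with its motifs in capitals. They are the AP-1 site (on the opposite strand, 35 bases before the start) and the TATA box (16 bases before it).
Mmp13, chr9:7272264-7272563, plus strand: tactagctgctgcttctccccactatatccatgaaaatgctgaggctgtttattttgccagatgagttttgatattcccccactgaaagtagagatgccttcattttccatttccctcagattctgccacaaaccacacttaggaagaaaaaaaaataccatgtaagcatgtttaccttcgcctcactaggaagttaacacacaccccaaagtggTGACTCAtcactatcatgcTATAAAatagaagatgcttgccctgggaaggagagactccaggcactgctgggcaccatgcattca

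Among the inhibitors, Timp2 was the most abundant of the 47 transcripts per kilobase of exon. Of the 4 inhibitor genes 3 were higher in MLX KO testes, beside 24.8% of all genes tested. One of the 3, Timp1, passed the filter on low counts through the MLX KO libraries only. Timp1 rose from near the limit of counting, Timp2 about doubled, Timp3 rose less, and Timp4 was not called.

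TIMP1 is a secreted inhibitor that is induced in many tissues by cytokines and injury. Its gene (chromosome X, 20870166 to 20874735 in mm10) had 3, 6 and 7 counts in WT1, WT2 and WT3 and 184, 202 and 215 in KO1, KO2 and KO3. The genotypes were far apart, with every WT library in single digits. The level was 0.311 ± 0.133 CPM in WT against 10.7 ± 1.04 CPM in MLX KO (SD, n = 3), a 34.3-fold ratio of means and a fitted log2 fold change of 5.10 (SE 0.24, edgeR adjusted p = 2.56e-07), higher in 3 of 3 pairs. Timp1 lies within Syn1, a synapsin gene on the opposite strand, with 0 shared exon bases. Syn1 had 4, 9 and 3 counts in WT against 17, 14 and 18 in MLX KO (log2 fold change 1.48, SE 0.43, edgeR adjusted p = 0.0154).

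TIMP2 inhibits MMP2 and, together with MMP14 on the cell surface, also takes part in activating pro-MMP2. Timp2 (chromosome 11, 118301069 to 118355740) had 3347, 2948 and 3075 counts in WT against 5994, 7784 and 7723 in MLX KO. All MLX KO libraries were above all WT libraries, KO1 being the lowest of them. Its level went from 179 ± 7.40 to 383 ± 64.7 CPM (SD, n = 3), a log2 fold change of 1.10 (SE 0.10, edgeR adjusted p = 2.11e-05). It lies 17208862 bases from Mlx on the same chromosome.

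TIMP3 is bound to the matrix and has the widest range of targets of the family. Timp3 (chromosome 10, 86300372 to 86349506) had 671, 566 and 685 counts in WT against 1183, 1062 and 1141 in MLX KO, again without overlap. The level rose from 36.7 ± 1.73 to 60.1 ± 1.17 CPM (SD, n = 3), a log2 fold change of 0.71 (SE 0.06, edgeR adjusted p = 8.64e-06). Timp3 lies inside Syn3 on the opposite strand and shares 1733 exon bases with it, and whether reads were counted by strand is not given in the sources used here. Syn3 itself had 28 to 36 counts in WT against 32 to 51 in MLX KO, far fewer than Timp3, and was not called (log2 fold change 0.26, edgeR adjusted p = 0.377).

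TIMP4 is the member with the narrowest tissue range. Timp4 (chromosome 6, 115241892 to 115252205) had 23, 23 and 18 counts in WT against 15, 18 and 20 in MLX KO. The genotypes overlapped, and the log2 fold change of -0.38 (SE 0.27) did not pass the test (edgeR adjusted p = 0.283). Timp4 lies inside Syn2 and shares 90 exon bases with it; Syn2, with 132 to 165 counts in WT against 122 to 147 in MLX KO, was not called (log2 fold change -0.25, edgeR adjusted p = 0.094).

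**Figure D2:**
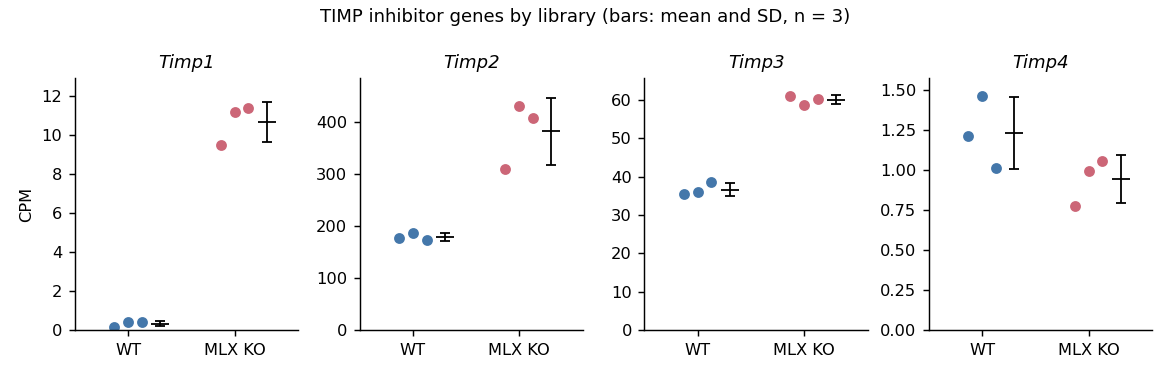
CPM of the 4 Timp genes in each library (points), with the mean and SD of 3 libraries per genotype (bars); each panel has its own axis from 0. MLX KO libraries lie above all WT libraries for Timp1, Timp2 and Timp3, and the genotypes overlap for Timp4.

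Per kilobase of exon the order of the inhibitors changed. In WT it was Timp2 (46.0 CPM per kb), Timp3 (4.50), Timp1 (0.351) and Timp4 (0.209), and in MLX KO it was Timp2 (98.3), Timp1 (12.0), Timp3 (7.37) and Timp4 (0.160). Timp1 thus passed Timp3 in MLX KO testes per kilobase, while in CPM Timp3 stayed higher there, at 60.1 against 10.7. The order per kilobase depends on the exon lengths used, 8144 bases for Timp3 and 888 for Timp1. The share of Timp1 in the summed Timp level per kilobase was 0.356%, 0.807% and 0.891% in the WT libraries. In the MLX KO libraries it was 10.9%, 9.64% and 10.2%. Timp2 made up 90.1 ± 0.715% of the sum in WT against 83.2 ± 1.78% in MLX KO (SD, n = 3), so that it remained the bulk of the inhibitor transcripts.

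**Figure D3:**
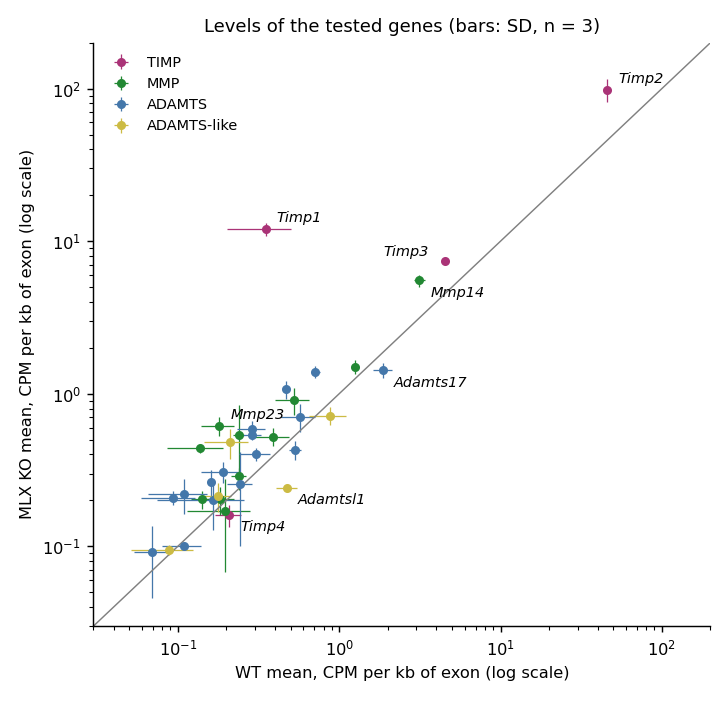
Mean level per kilobase of exon (CPM per kb, log axes) in WT (horizontal) and MLX KO (vertical) for the 36 tested genes, with SD of 3 libraries (bars); the line marks equal levels. Timp1 lies far above the line at 0.351 against 12.0, Timp2 is the highest point, and Adamtsl1 and Adamts17 lie below the line.

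Of the 19 Mmp genes 11 were tested, and 5 of these were higher and none lower: Mmp2, Mmp9, Mmp14, Mmp19 and Mmp23. They included both gelatinases and 1 of the 5 tested membrane-type enzymes. Of all genes tested, 24.8% were higher and 20.6% lower. Mmp23 passed the filter on low counts through the MLX KO libraries only. Mmp9 reached it in all MLX KO but not all WT libraries. The median log2 fold change of the 11 was 0.53.

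MMP14 is a membrane-anchored collagenase that also activates pro-MMP2. Mmp14 (chromosome 14, 54431612 to 54445364) was the highest Mmp gene per kilobase, at 3.14 CPM per kb in WT against 5.54 in MLX KO. It had 363, 269 and 354 counts in WT against 572, 635 and 649 in MLX KO, with no overlap. The level rose from 18.7 ± 1.47 to 33.0 ± 3.05 CPM (SD, n = 3), a log2 fold change of 0.81 (SE 0.09, edgeR adjusted p = 5.80e-05).

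The gelatinases MMP2 and MMP9 cut denatured collagen and type IV collagen of basement membranes. Mmp9 (chromosome 2, 164940780 to 164955850) had 7, 11 and 7 counts in WT against 32, 26 and 30 in MLX KO, so all MLX KO libraries held more than any WT library. The log2 fold change was 1.69 (SE 0.31, edgeR adjusted p = 0.00121), on a level of 0.488 ± 0.184 against 1.56 ± 0.109 CPM (SD, n = 3). Mmp2 (chromosome 8, 92827291 to 92853420) had 14, 13 and 15 counts in WT against 20, 26 and 56 in MLX KO. KO3 was more than 2 times KO1, and the SD of MLX KO, 1.02 CPM around a mean of 1.81, was far wider than that of WT, 0.0575 around 0.804. The log2 fold change of 1.17 (SE 0.39, edgeR adjusted p = 0.0304) fell to 0.62 (adjusted p = 0.162) without KO3. The call was also lost without any single WT library (adjusted p from 0.0626 to 0.0838) and with a pair block in DESeq2 (1.02, adjusted p = 0.157).

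MMP23 is a small membrane-associated member without the hemopexin domain, known from reproductive tissues. Mmp23 (chromosome 4, 155650655 to 155653384) had 6, 7 and 9 counts in WT against 24, 26 and 31 in MLX KO, the largest increase among the Mmp genes. Its log2 fold change was 1.76 (SE 0.31, edgeR adjusted p = 0.000967), from 0.423 ± 0.0975 to 1.44 ± 0.202 CPM (SD, n = 3). MMP19 cuts basement membrane components, and Mmp19 (chromosome 10, 128790910 to 128800824) had 26, 35 and 35 counts in WT against 48, 65 and 68 in MLX KO. Its log2 fold change was 0.80 (SE 0.24, edgeR adjusted p = 0.0173). That call was lost without WT1, KO2 or KO3 (0.62 to 0.72, adjusted p from 0.0619 to 0.0715) and with a pair block in DESeq2 (0.77, adjusted p = 0.111). Mmp19 shares 789 exon bases with Tmem198b on the opposite strand, which was not called (log2 fold change -0.06, edgeR adjusted p = 0.796).

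The remaining tested Mmp genes had log2 fold changes from -0.21 for Mmp28 to 0.53 for Mmp15 and were not called. They were the membrane-type genes Mmp15, Mmp17, Mmp24 and Mmp25, with Mmp11 and Mmp28. Mmp11, which encodes a stromelysin of stromal cells, stood second among Mmp genes per kilobase, at 1.24 CPM per kb in WT against 1.50 in MLX KO. Its genotypes did not overlap, nor did those of Mmp15, but neither passed the test (Mmp11 0.27, edgeR adjusted p = 0.179; Mmp15 0.53, edgeR adjusted p = 0.144). Mmp11 shares 155 exon bases with Chchd10, which was higher (log2 fold change 0.79).

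The other 8 Mmp genes had too few counts. Of these, 6 lie on chromosome 9 from 7272514 to 7699585, a span of 427 kb with the collagenase genes Mmp8 and Mmp13, the macrophage elastase gene Mmp12, the matrilysin gene Mmp7, and Mmp20 and Mmp27. Together they had 3 counts in the 3 WT libraries and 14 in the 3 MLX KO libraries. The highest count of any of them was 5, for Mmp13 in KO1. A count of 0 allows up to 3 counts in a library at this depth, so low transcription of these genes was not detectable rather than absent. Mmp21 had 2 counts in 1 MLX KO library and none elsewhere, and Mmp16 had 2 to 5 counts in every library.

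Of the 19 Adamts genes 16 were tested, 7 were higher and 1 was lower, beside 24.8% higher and 20.6% lower among all genes tested. The median log2 fold change of the 16 was 0.55. The branch that cuts proteoglycans held 5 of the 7 higher genes: Adamts1, Adamts5, Adamts8, Adamts9 and Adamts15. Of these, Adamts8 passed the filter on low counts through the MLX KO libraries only. The remaining higher genes were Adamts2, a procollagen N-proteinase, and Adamts6. Adamts17 was the one that was lower.

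All 7 genes of the proteoglycanase branch were tested, with a median log2 fold change of 0.97. ADAMTS5 is a main aggrecanase of cartilage and, per kilobase, Adamts5 (chromosome 16, 85856173 to 85901828) was the highest of the branch. It had 150, 127 and 126 counts in WT against 304, 290 and 254 in MLX KO, without overlap, or 7.70 ± 0.519 against 15.1 ± 1.41 CPM (SD, n = 3). Its log2 fold change was 0.97 (SE 0.11, edgeR adjusted p = 6.46e-05). ADAMTS1 cuts versican and is needed for ovulation in the ovary, and Adamts1 (chromosome 16, 85793827 to 85803113) lies 53059 bases from Adamts5. Its counts were 32, 27 and 21 in WT against 52, 58 and 65 in MLX KO, and the groups were again apart. The log2 fold change of 1.02 (SE 0.22, edgeR adjusted p = 0.00298) was close to that of its neighbour.

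Adamts9 (chromosome 6), whose product cuts versican and is retained near the cell surface, had 85, 58 and 86 counts in WT against 144, 151 and 161 in MLX KO. All MLX KO libraries were higher, and the log2 fold change was 0.89 (SE 0.14, edgeR adjusted p = 0.000478). Adamts9 shares 1381 and 424 exon bases with A730049H05Rik and Gm15737 on the opposite strand, and Adamts8 shares 489 with Gm29724, so reads there could come from either gene. Adamts8 and Adamts15 lie 20109 bases apart on chromosome 9 and are transcribed away from each other. Adamts8 had 9, 4 and 10 counts in WT against 19, 19 and 16 in MLX KO, with no overlap and a log2 fold change of 1.12 (SE 0.34, edgeR adjusted p = 0.0205). Adamts15 had 31, 15 and 14 counts in WT against 31, 49 and 48 in MLX KO; WT1 was above KO1 in CPM, so the genotypes overlapped, and the gene was higher in 2 of 3 pairs. Its log2 fold change was 1.00 (SE 0.31, edgeR adjusted p = 0.0219). These calls were less firm than those of Adamts1, Adamts5 and Adamts9. The Adamts8 call was lost in DESeq2 (1.11, adjusted p = 0.134), with a pair block in DESeq2 (1.16, adjusted p = 0.249) and without WT2 (0.88, adjusted p = 0.0828) or KO2 (1.06, adjusted p = 0.0696). The Adamts15 call was lost with a pair block in DESeq2 (1.01, adjusted p = 0.120) and without WT2, WT3, KO2 or KO3 (0.79 to 0.92, adjusted p from 0.0710 to 0.0824).

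The other proteoglycanase genes, Adamts4 and Adamts20, were not called. Adamts4 had a log2 fold change of 0.29 (edgeR adjusted p = 0.612), with a SE of 0.42 that was larger than the change. Adamts20, which belongs to the same branch as Adamts9, had a log2 fold change of -0.31 (edgeR adjusted p = 0.130) and was lower in 3 of 3 pairs with overlapping values.

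The procollagen N-proteinases remove the propeptide that keeps fibrillar procollagen soluble. Adamts2 (chromosome 11, 50602084 to 50807573), the main enzyme of skin, had 87, 64 and 79 counts in WT against 173, 173 and 217 in MLX KO. Every MLX KO library held more counts than any WT library, and the level rose from 4.37 ± 0.269 to 9.99 ± 1.33 CPM (SD, n = 3), with a log2 fold change of 1.19 (SE 0.14, edgeR adjusted p = 7.31e-05). Adamts14 had 13, 18 and 20 counts in WT against 27, 34 and 29 in MLX KO, without overlap. Its log2 fold change of 0.71 (SE 0.28) missed the threshold (edgeR adjusted p = 0.0567) and passed it with a pair block in edgeR (0.71, adjusted p = 0.0497), with library size alone (0.85, adjusted p = 0.0302) and without KO1 (0.80, adjusted p = 0.0466). Adamts3 was not called (log2 fold change 0.07, edgeR adjusted p = 0.902), with 8 counts in KO1 against 33 and 37 in KO2 and KO3.

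Adamts17 (chromosome 7, 66839735 to 67153171) was the highest Adamts gene per kilobase in WT, at 1.87 CPM per kb, and the one Adamts gene that was lower in MLX KO, at 1.43. Its product is linked to short stature and eye disease. The counts were 319, 217 and 231 in WT against 243, 184 and 198 in MLX KO, with CPM lower in 3 of 3 pairs and no overlap. The level went from 14.5 ± 2.00 to 11.1 ± 1.28 CPM (SD, n = 3), a log2 fold change of -0.40 (SE 0.12, edgeR adjusted p = 0.0213). That call was lost with library size alone (-0.26, adjusted p = 0.114) and without WT1, KO2 or KO3 (-0.28 to -0.35, adjusted p from 0.0793 to 0.102). Adamts6 (chromosome 13) had 24, 20 and 22 counts in WT against 45, 28 and 43 in MLX KO and a log2 fold change of 0.70 (SE 0.24, edgeR adjusted p = 0.0321). Leaving out any library but KO2 ended that call (adjusted p from 0.0773 to 0.107), as did DESeq2 without the pair (0.67, adjusted p = 0.162) and with it (0.66, adjusted p = 0.317).

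Adamts7, Adamts10, Adamts12 and Adamts19 were tested and not called, with log2 fold changes from -0.13 for Adamts19 to 0.40 for Adamts10. Reads of Adamts7 and of Tbc1d2b on the opposite strand, which was higher (log2 fold change 1.38), could be mixed over 122 shared exon bases. Adamts13, which encodes the protease of von Willebrand factor, Adamts16 and Adamts18 had too few counts, at most 10 in any library.

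All 5 Adamtsl genes, whose products lack the protease domain, were tested, with a median log2 fold change of 0.14. Of these, 1 was higher and 1 lower, or 20% each, beside 24.8% and 20.6% of all genes tested. Adamtsl2 and Adamtsl4 reached the filter on low counts in all MLX KO but not all WT libraries. ADAMTSL4 binds fibrillin microfibrils, and Adamtsl4 (chromosome 3, 95676201 to 95687917) had 20, 9 and 18 counts in WT against 30, 38 and 46 in MLX KO. All MLX KO libraries were above WT, and the log2 fold change was 1.18 (SE 0.29, edgeR adjusted p = 0.00691); with a pair block in DESeq2 the adjusted p was 0.0710. Adamtsl1 (chromosome 4, 85514172 to 86428385) went the other way, with 125, 79 and 117 counts in WT against 56, 58 and 59 in MLX KO. The MLX KO libraries lay close together and below every WT library. The level dropped from 6.07 ± 0.907 to 3.07 ± 0.166 CPM (SD, n = 3), 1.98-fold lower by the ratio of means, with a log2 fold change of -0.99 (SE 0.16, edgeR adjusted p = 0.000625), the largest decrease among the 47 genes. Adamtsl2, Adamtsl3 and Adamtsl5 were not called, at 0.14, 0.25 and -0.27.

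**Figure D4:**
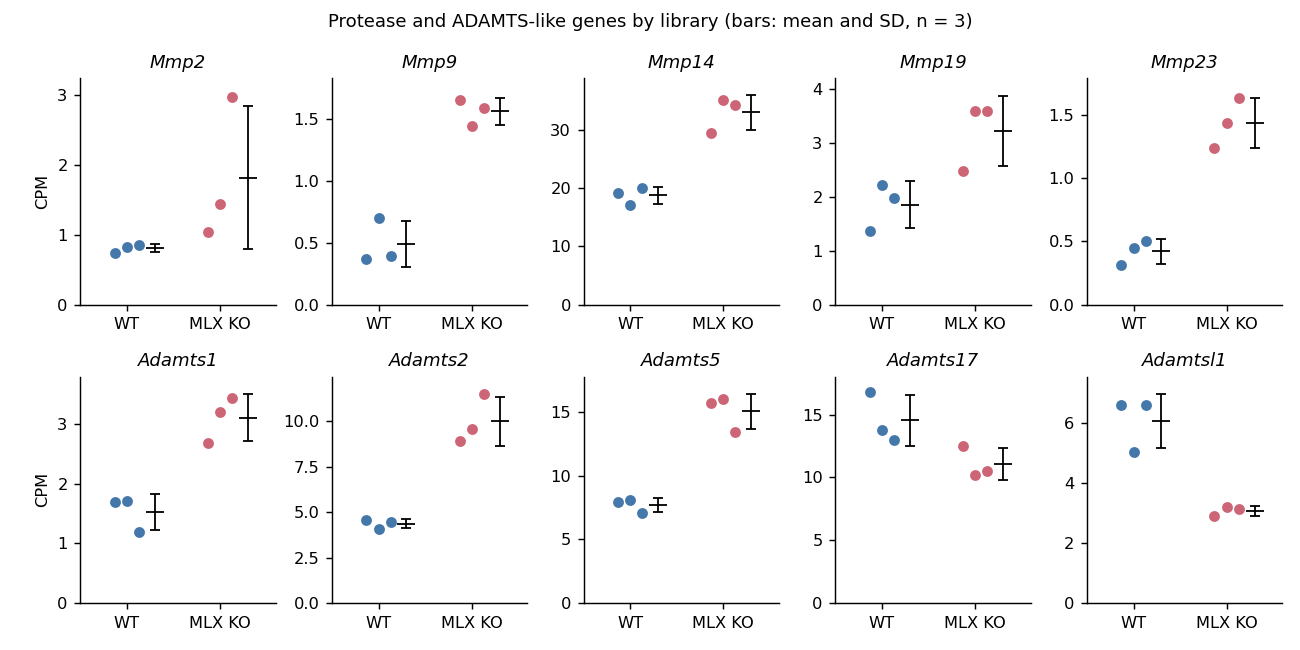
CPM in each library (points) with the mean and SD of 3 libraries per genotype (bars) for 5 Mmp genes, 4 Adamts genes and Adamtsl1; each panel has its own axis from 0. KO3 lies apart in Mmp2, and Adamts17 and Adamtsl1 are lower in MLX KO while the other 8 genes are higher.

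To set inhibitors beside proteases, the levels per kilobase of all genes of a family were summed in each library, as a description without a test. The Timp sum was 50.0, 53.2 and 49.9 CPM per kb in WT1, WT2 and WT3 and 97.7, 130.5 and 125.4 in KO1, KO2 and KO3, 2.31-fold higher. The Mmp sum was 6.40, 6.58 and 7.02 in WT against 9.91, 11.6 and 11.8 in MLX KO, 1.66-fold higher. Neither sum overlapped between the genotypes. The ratio of the Timp to the Mmp sum was 7.82, 8.09 and 7.11 in WT against 9.86, 11.3 and 10.7 in MLX KO, a ratio that no scaling of the libraries changes. Timp2 was the largest term of the Timp sum and Mmp14 of the Mmp sum. The Adamts sum was 6.31 ± 0.282 CPM per kb in WT against 8.38 ± 0.447 in MLX KO (SD, n = 3). The Adamtsl sum was 1.83 ± 0.104 and 1.75 ± 0.0631, a difference that turned to 1.74 against 1.84 when libraries were scaled by their totals alone.

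**Figure D5:**
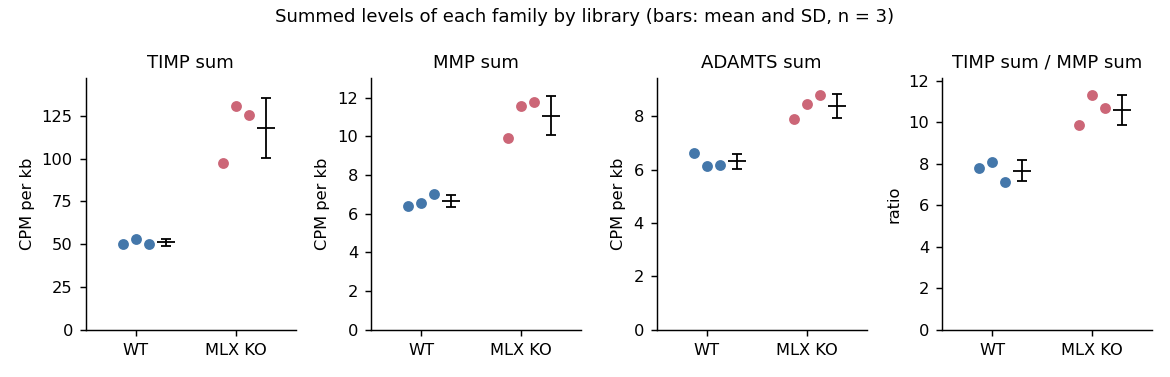
Summed level per kilobase of exon (CPM per kb) of the Timp, Mmp and Adamts genes, and the ratio of the Timp to the Mmp sum, in each library (points) with the mean and SD of 3 libraries per genotype (bars). In all 4 panels the MLX KO libraries lie above the WT libraries, with a ratio of 9.86 to 11.3 against 7.11 to 8.09.

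Activators and other regulators of these and other matrix proteases were counted from a list chosen with earlier results of these data known. It held 21 genes, 19 of them tested. Of these, 8 were higher and 1 lower, beside 24.8% higher and 20.6% lower among all genes tested. The median log2 fold change of the 19 was 0.34. The largest increases were those of Pcolce, an enhancer of procollagen C-proteinase (1.42, edgeR adjusted p = 2.24e-05), Pcsk5, a proprotein convertase (1.08, edgeR adjusted p = 0.000416), and Plau, the urokinase that makes plasmin (1.07, edgeR adjusted p = 0.00489). The procollagen C-proteinase is not among the 47 genes. Furin, the convertase that activates membrane-type MMPs and ADAMTS precursors, went from 20.3 ± 1.11 to 38.3 ± 7.62 CPM (SD, n = 3; log2 fold change 0.92, edgeR adjusted p = 0.000230). Lrp1, the receptor that clears TIMP3 and several of the proteases from the cell surface, rose by 0.86 on the log2 scale (edgeR adjusted p = 0.000435). Reck, a membrane-anchored MMP inhibitor, was not called (0.14, edgeR adjusted p = 0.270), and neither was the general protease inhibitor A2m (0.01, edgeR adjusted p = 0.975). The lower gene was Bsg, which encodes the MMP inducer basigin and is abundant in germ cells (-0.15, edgeR adjusted p = 0.0272). Its call was lost with a pair block in edgeR (adjusted p = 0.0658), with library size alone (-0.01, adjusted p = 0.804) and without any library but KO1 (adjusted p from 0.0514 to 0.118). The Plau call was lost with a pair block in DESeq2 (1.04, adjusted p = 0.0507).

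Substrates of the proteases were counted from a list of 20 matrix genes, also chosen with earlier results of these data known. Of 19 tested, 13 were higher and 2 lower, with a median log2 fold change of 0.88. Among all genes tested, 24.8% were higher and 20.6% lower. The largest increases were those of Col4a1, a chain of basement membrane collagen (1.37, edgeR adjusted p = 4.08e-06), Acan, the proteoglycan aggrecan (1.33, edgeR adjusted p = 0.00315), and Bgn, the small proteoglycan biglycan (1.18, edgeR adjusted p = 1.36e-05). The fibrillar collagen genes Col1a1, Col1a2 and Col3a1 rose by 1.09, 1.13 and 1.15 on the log2 scale. Acan had 17 to 25 counts in WT against 37 to 63 in MLX KO, while Vcan, the versican gene, was not called (0.23, edgeR adjusted p = 0.574). Comp, a cartilage matrix protein, and Nid1, the basement membrane linker nidogen, were lower (-0.46, edgeR adjusted p = 0.000346, and -0.25, edgeR adjusted p = 0.0187). The Nid1 call was lost with library size alone (-0.11, adjusted p = 0.255), with a pair block in DESeq2 (-0.28, adjusted p = 0.0761) and without WT1, KO2 or KO3 (adjusted p from 0.0690 to 0.0841).

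Markers of several cell types moved with genotype in the same libraries. The marker lists, too, were chosen with earlier results of these data known. The counts below stand beside 24.8% higher and 20.6% lower among all genes tested. The 8 Leydig cell markers were all higher (median log2 fold change 1.05, summed level 876 to 904 CPM in WT against 1871 to 2469 in MLX KO). All 9 tested macrophage markers were higher (1.28, 80.9 to 85.5 against 168 to 175 CPM), and so were 5 of 6 fibroblast markers (1.06, 70.2 to 81.7 against 136 to 183 CPM) and 9 of 10 Sertoli cell markers (0.65, 1072 to 1121 against 1593 to 1894 CPM). Of the endothelial markers 2 of 7 were higher, and of the peritubular myoid markers 4 were higher and 1 lower of 6. A pair block in DESeq2 gave 8 higher macrophage, 4 fibroblast and 3 peritubular myoid markers, and one in edgeR gave 3 higher endothelial markers. Dcn, Col1a1 and Col1a2 stand in both the fibroblast and the matrix list, and Vwf in both the endothelial and the matrix list.

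Markers of late germ cells went the other way. Among all genes tested, 20.6% were lower and 24.8% higher. All 10 elongating spermatid markers were lower (median log2 fold change -0.53), and their summed level was 26689 to 27737 CPM in WT against 16380 to 19813 in MLX KO. All 8 round spermatid and 7 of 10 spermatocyte markers were lower (-0.26 and -0.16), counts that became 4 and 1 with library size alone, 6 and 8 with a pair block in edgeR, and 8 and 6 with a pair block in DESeq2. Of 8 tested spermatogonial markers 2 were higher and 1 lower. S100a8, S100a9, Elane, Ltf and Camp, which define neutrophils, had too few counts. Of the 2 tested neutrophil markers, Mpo was lower (-1.84) and Csf3r was not called (0.006, edgeR adjusted p = 0.990). T and B lymphocyte markers were not called in 3 of 3 tested. Of the 8 epididymal markers in the count table, 6 (Lcn5, Lcn9, Defb20, Crisp1, Adam28 and Gpx5) had too few counts. Cst8 and Rnase10 were lower, 1 of which kept its call with a pair block in DESeq2. Cst8 stood at 194 CPM in WT against 147 in MLX KO, far above the 6 with too few counts. Whether its transcripts came from epididymal cells was not tested. The part of these cell types in the changes of the protease and inhibitor genes was not tested.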

How the data were processed

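Whole testes of 3 WT and 3 MLX KO mice were profiled by paired-end RNA-seq. The authors deposited raw read counts for each gene symbol and library, as whole numbers without normalization, after alignment to mm10 with TopHat. The submitters' processing notes also name bcl2fastq 1.8.4, Bowtie2, bedtools and DESeq2; the counting tool, its strand setting and the annotation are not given in the sources used here. Columns of the authors' own comparison (mean, fold change, standard error, test score, p-values) were not used, and the ChIP-Seq samples were not analysed here.

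Of 17933 table entries, 2 repeated another and were used once. Counts were filtered (edgeR 4.0.16 in R 4.3.3, filterByExpr with a minimum count of 10, about 0.550 CPM), TMM-normalized and tested two-sided with the quasi-likelihood test of edgeR, with genotype alone in the model and Benjamini-Hochberg adjustment over 14640 genes and a threshold of 0.05. The code was tested on simulated data. SE is the fold change divided by the root of its F statistic. Exon lengths, coordinates and overlaps came from GENCODE M21 (GRCm38), and promoter windows from RefSeq GRCm38.p6. A count of 0 was read as at most 3 counts, for counting error only. P-values set the difference between genotypes against the spread between these males.

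The rule for the genes uses no measured value, but it and the lists were chosen with earlier results of these data known. All Timp genes and every other called gene are named, with counts per library; the other genes are given by range, or with values where groups did not overlap or a role needed them. The lists name the largest changes and further genes by role, chosen after their values were seen. Pairing of the numbers rests on the titles and on the littermate pairs that the study describes. Deviations from genotype means had correlations of 0.145, 0.0363 and 0.121 for libraries sharing a number. For any other WT and MLX KO libraries they ran from -0.123 to 0.0330, so pair 2 lay close to the highest of these. The 14 alternatives were DESeq2 1.42.0, its size factors, library size alone, upper-quartile factors, no filter, a filter of 1 CPM in at least 3 libraries, a pair block (edgeR, DESeq2), and each library left out.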

Additional observations from a re-analysis of the deposited data

How the results depend on the processing

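Of the 18 called Mmp, Timp, Adamts and Adamtsl genes, 11 kept their call and direction under all 14 alternatives: Timp1, Timp2, Timp3, Mmp9, Mmp14, Mmp23, Adamts1, Adamts2, Adamts5, Adamts9 and Adamtsl1. Of 499 values of the tested genes under an alternative, 454 kept both, 30 lost a call, 3 gained one and 12 changed direction. The count of higher genes, 16, was 12 to 17 except with the replicate block in DESeq2, where it was 10; leaving out 1 library gave 12 to 16. The count of lower genes, 2, was 1 with library size alone and 1 to 2 without 1 library. Regulators lower, 1, became 0 with library size alone and with the replicate block in edgeR, and 0 to 1 without 1 library; regulators higher, 8, stayed at 8 without any 1 library. Matrix genes lower, 2, became 1 with library size alone and with the replicate block in DESeq2, and 1 to 2 without 1 library; matrix genes higher, 13, were 13 to 14 without 1 library. Among the 36 genes, the regulators and the matrix genes, the block in edgeR changed the calls of Adamts14, Bsg and Eln (0.50, adjusted p = 0.0403) and no other; its effect on the cell type markers stands beside them.

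The changes of direction were all in genes not called. Adamts19 went to 0.01 with library size alone (0.0082) and 0.05 without WT1. Adamts3 went to -0.0042 with the block in edgeR, to -0.155 with the block in DESeq2, and to -0.03, -0.16 and -0.25 without WT3, KO2 and KO3. Without WT3, Adamts4 went to -0.08, Adamtsl2 to -0.09 and Mmp28 to 0.19; Mmp28 went to 0.23 without KO1, and Adamts12 to -0.07 without KO3. Over the fits without 1 library, these genes ranged from -0.0710 to 0.6703 (Adamts12), -0.3173 to 0.0513 (Adamts19), -0.2516 to 0.5214 (Adamts3), -0.0810 to 0.6777 (Adamts4), -0.0921 to 0.4805 (Adamtsl2) and -0.5684 to 0.2280 (Mmp28). Their cause was not tested. Over all genes, DESeq2 called 5720 without the block and 4579 with it, and edgeR 6649 and 6743; of the 36 genes DESeq2 called 14 higher without the block. The 11 genes with too few counts were left out by the filter on low counts, and without that filter all 47 entered the test.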
